A study of Mus musculus with 6 samples.

Results

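Desmosomes are the junctions that fasten keratinocytes to each other and anchor their keratin filaments, and the genes described here encode their adhesive cadherins and the plaque proteins beneath the membrane. The desmosomal genes considered were the desmocollins Dsc1, Dsc2 and Dsc3, the desmogleins Dsg1a, Dsg1b, Dsg3 and Dsg4, desmoplakin (Dsp) and the plakophilins Pkp1 and Pkp3. All probe sets that the array annotation assigns to 1 of these 10 symbols were taken. This gave 14 probe sets for 8 genes, of 45037 probe sets tested, and none of the 14 was shared with another gene symbol. No probe set carried the symbol Dsg3 or Dsg4, and both genes are not analysed here. The tested mice were 3 females labelled K5cre-caNrf2 (tg/tg), and the controls were 3 females labelled K5cre-wt (tg/wt). They came from 1 litter on a mixed FVB/N and C57BL/6 background and were killed on postnatal day 2.5, and each gave 1 array of whole back skin. The label K5cre is on all 6 mice and names a Cre recombinase under the keratin 5 promoter, which is active in basal keratinocytes of the epidermis and its appendages. The constitutively active Nrf2 (caNrf2) is thus aimed at keratinocytes, while the skin samples also held dermal cells. The genotype cell of the caNrf2 arrays reads tg/g and the treatment cell names CaNrf2 for both groups, so groups follow the sample titles. These read "transgene strong" 1 to 3 and "wildtype strong" 1 to 3, with the word strong in all 6.

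In a desmosome the outer parts of desmocollins and desmogleins bind across the gap between 2 cells. Their tails are held by plakoglobin and the plakophilins, and desmoplakin ties this plaque to keratin. In epidermis the desmosomal cadherins are layered: Dsc1 and Dsg1 are typical of the upper layers, Dsc3 and Dsg3 of the lower ones, and Dsc2 and Dsg2, with the plakophilin Pkp2, are the forms found widely in other epithelia and in heart. The series title names target genes of the transcription factor Nrf2 in skin as its subject, and the comparison asks which desmosomal transcripts differed between the genotypes.

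Most desmosomal transcripts had small estimated differences between the genotypes. For 11 of the 14 probe sets, none of them of Dsc2, the 95% interval lay within log2 fold changes of -0.5 and 0.5. Moderate changes inside these bounds remain possible. The only gene to pass the test was Dsc2, for which 1 of its 2 probe sets was lower in caNrf2 skin, at a fold of 0.63. At the brightest probe set of each gene, desmoplakin and the plakophilins Pkp1 and Pkp3 were the closest between the genotypes. A large change in them lies outside the intervals of all their probe sets. Dsg1b had the highest estimate, at a fold of 1.32, and did not pass the test. In limma with Benjamini-Hochberg adjustment over all probe sets, 1 of 14 desmosomal probe sets was called lower at an adjusted p under 0.05, where 0.633% of all probe sets were. None was called higher, where 1.04% of all probe sets were. At an unadjusted p under 0.05 there were 1 higher and 3 lower of the 14, where 8.9% of all probe sets were higher and 8.53% lower. The median log2 fold change was 0.03 over the 14 and -0.004 over all probe sets tested.

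The transcript of the transgene's own gene, Nfe2l2 (Nrf2), read 1136, 1222 and 1242 in caNrf2 skin, against 825, 726 and 774 in control skin on 1416543_at. It was called higher (log2 fold change 0.63 ± 0.07; adjusted p = 0.0018), and whether this probe set detects the transgene was not determined. Nqo1, a quinone reductase and established Nrf2 target, had intensities of 1315, 1432 and 1512 in caNrf2 skin, against 72.6, 66.2 and 64.3 in control skin. Of the 7 Nrf2 targets listed, 7 were called higher, with a median log2 fold change of 1.61. Intensities are linear values from RMA, and they compare arrays for 1 probe set, not probe sets with each other. Control replicate 3 was often the highest control in the desmosomal genes. It was so for 11 of the 14 probe sets (78.6%), against 33.4% of all probe sets, and several of the 14 read the same gene. At the brightest probe set it was also the highest control for Krt1, Krt10, Flg and Cdh1. It was the lowest for Krt5, Krt31 and Krt35. These keratinocyte and hair genes were picked after their values were seen. Without control replicate 3, Dsc2 was still called and none of the other 13 probe sets was.

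**Figure D1:**
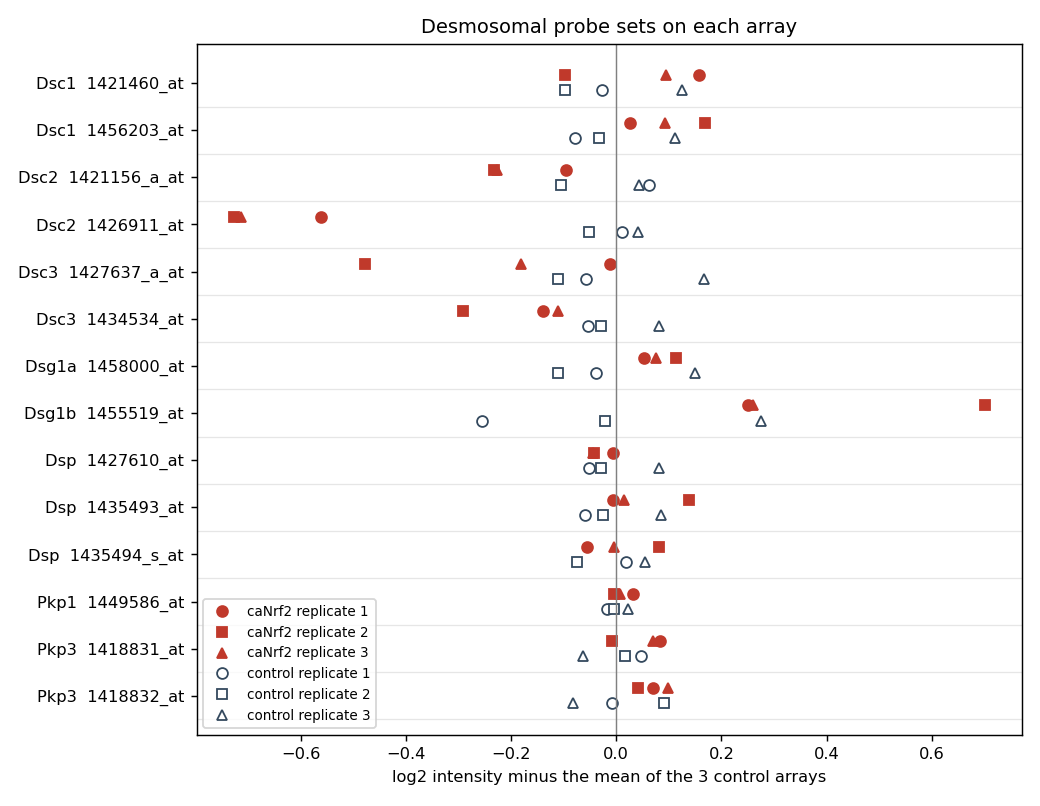
Log2 intensity of each of the 14 desmosomal probe sets on each array, minus the mean of the 3 control arrays; filled red symbols are caNrf2 and open symbols control mice, and the symbol shape gives the replicate number. Only Dsc2 1426911_at and Dsc3 1434534_at have groups that do not overlap, both with caNrf2 below control. Over all probe sets, 11.7% are separate in this direction.

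Among the desmocollins, Dsc2 carried the difference. Probe set 1426911_at read 132, 118 and 119 in caNrf2 skin, against 197, 188 and 201 in control skin. All 3 caNrf2 arrays lay below all 3 control arrays by a margin far wider than the spread within either group. Mean intensity was 123 ± 7.98 in caNrf2 and 195 ± 6.42 in control skin (SD, n = 3 each). The log2 fold change was -0.67 ± 0.07 (SE; limma, adjusted p = 0.00095), with a 95% interval from -0.83 to -0.51. Only 29 other probe sets called lower had a more negative log2 fold change. The call held in all 14 alternative analyses, including each of the 6 that leave out 1 array, at adjusted p from 8.38e-05 to 0.01. Without control replicate 3 the log2 fold change was -0.65. In whole skin, fewer cells of a type and less RNA per cell cannot be told apart.

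The other Dsc2 probe set, 1421156_a_at, gave a smaller difference of the same direction. It read 103, 93.5 and 93.8 in caNrf2 skin, against 115, 102 and 113 in control skin, and the groups overlapped by 1 array on each side. Its log2 fold change was -0.18 ± 0.07 (SE; adjusted p = 0.243). The suffix "_a" is used by the array maker for probe sets that match several transcripts of a gene, and which Dsc2 transcripts each probe set detects was not determined.

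Dsc3, the desmocollin of the lower epidermal layers, had 2 probe sets with negative estimates that did not pass. The brighter of them, 1434534_at, read 2834, 2548 and 2888 in caNrf2 skin, against 3005, 3060 and 3303 in control skin. Its groups did not overlap, which was so for 11.7% of all probe sets in this direction. The log2 fold change was -0.18 ± 0.07 (SE; adjusted p = 0.254), and ran from -0.22 to -0.13 when 1 array was left out. The second probe set, 1427637_a_at, read 815, 591 and 725 in caNrf2 skin, against 791, 762 and 924 in control skin, and its groups overlapped. Its log2 fold change of -0.22 ± 0.12 (adjusted p = 0.36) ran from -0.33 without caNrf2 replicate 1 to -0.10 without caNrf2 replicate 2, the lowest array.

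Dsc1, the desmocollin of the upper layers, gave small positive estimates on both probe sets. Probe set 1456203_at read 4878, 5387 and 5108 in caNrf2 skin, against 4537, 4684 and 5179 in control skin. Control replicate 3 lay within the caNrf2 range, and the other controls lay below it. The log2 fold change was 0.10 ± 0.07 (SE; adjusted p = 0.537), and ran from 0.06 without control replicate 1 or caNrf2 replicate 2 to 0.15 without control replicate 3. Probe set 1421460_at read 1711, 1435 and 1638 in caNrf2 skin, against 1506, 1434 and 1672 in control skin, with the groups mixed. It gave 0.05 ± 0.09 (adjusted p = 0.794).

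The desmogleins measured were 2 of the mouse copies of Dsg1, the partner of Dsc1 in the upper epidermis and the target of autoantibodies in human pemphigus foliaceus. Dsg1b (1455519_at) read 414, 567 and 418 in caNrf2 skin, against 292, 343 and 422 in control skin. The caNrf2 arrays 1 and 3 lay just under control replicate 3, and caNrf2 replicate 2 was the highest of the 6. The log2 fold change was 0.40 ± 0.15 (SE; adjusted p = 0.211), with a 95% interval from 0.07 to 0.74, and no alternative brought it past the threshold. Without 1 array it ran from 0.26 (caNrf2 replicate 2) to 0.54 (control replicate 3). Its standard error was the largest of the 14.

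Dsg1a (1458000_at) read 3221, 3360 and 3272 in caNrf2 skin, against 3024, 2876 and 3448 in control skin. The caNrf2 arrays were close together, inside the wider range of the controls. The log2 fold change was 0.08 ± 0.08 (SE; adjusted p = 0.628), and ran from 0.02 without control replicate 2 to 0.16 without control replicate 3. The Dsg1 copies of the mouse are close paralogs, and whether either probe set also detects another copy was not tested.

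The plaque proteins were close to even. Dsp, which links the plaque to keratin, was covered by 3 probe sets. Probe set 1435493_at read 7040, 7780 and 7144 in caNrf2 skin, against 6786, 6947 and 7503 in control skin. Probe set 1435494_s_at read 9649, 10609 and 10005 in caNrf2 skin, against 10161, 9529 and 10419 in control skin. Probe set 1427610_at read 1753, 1710 and 1708 in caNrf2 skin, against 1699, 1724 and 1861 in control skin. In each of them the groups were mixed, and the log2 fold changes were 0.05 ± 0.07, 0.01 ± 0.07 and -0.03 ± 0.07 (SE; adjusted p from 0.762 to 0.968).

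Pkp1, a plakophilin of the upper epidermis that binds desmoplakin and keratin, had the tightest values of all. Its probe set 1449586_at read 7242, 7058 and 7111 in caNrf2 skin, against 6994, 7059 and 7190 in control skin, a log2 fold change of 0.01 ± 0.06 (SE; adjusted p = 0.942). Pkp3, the plakophilin found in all living epidermal layers, read 2778, 2606 and 2752 in caNrf2 skin, against 2708, 2653 and 2509 in control skin on 1418831_at. Its other probe set, 1418832_at, read 1137, 1115 and 1161 in caNrf2 skin, against 1077.5, 1153.7 and 1023.9 in control skin. The log2 fold changes of Pkp3 were 0.05 ± 0.07 and 0.07 ± 0.07 (adjusted p = 0.739 and 0.628), with overlapping groups on both. Over the 6 probe sets of Dsp, Pkp1 and Pkp3, the 95% intervals of the fold lay between 0.885 and 1.17. A fall of the size measured for Dsc2 on 1426911_at lay outside every one of them.

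Dsp was also the only 1 of the 10 genes with an entry in the RefSeq promoter table used (GRCm38.p6). Its sequence is shown beside that of Srxn1, a sulfiredoxin called higher in caNrf2 skin at a log2 fold change of 4.41 on 1426875_s_at, to set a desmosomal gene that stayed close to even beside a responding one. Nrf2 binds with small Maf proteins to antioxidant response elements, whose core was searched as TGACNNNGC on both strands, together with the GC box GGGCGG, also on both strands. The windows run from 250 bases before to 50 bases after the start site and are printed 5′ to 3′ along the gene, with matches to either motif in capitals.
Dsp, chr13:38151044-38151343, plus strand: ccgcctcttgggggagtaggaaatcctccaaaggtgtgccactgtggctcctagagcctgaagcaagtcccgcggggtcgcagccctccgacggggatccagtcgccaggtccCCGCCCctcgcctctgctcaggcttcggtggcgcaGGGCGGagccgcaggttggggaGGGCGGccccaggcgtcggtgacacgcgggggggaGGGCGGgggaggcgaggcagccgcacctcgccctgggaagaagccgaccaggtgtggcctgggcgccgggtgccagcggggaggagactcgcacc
Srxn1, chr2:152105274-152105573, plus strand: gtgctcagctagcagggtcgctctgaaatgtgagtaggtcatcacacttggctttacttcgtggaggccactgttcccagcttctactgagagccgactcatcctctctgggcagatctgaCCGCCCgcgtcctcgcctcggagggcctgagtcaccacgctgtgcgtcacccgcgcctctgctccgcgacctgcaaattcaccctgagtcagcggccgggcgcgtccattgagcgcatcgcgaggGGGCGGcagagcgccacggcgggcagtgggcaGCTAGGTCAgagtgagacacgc
The Dsp window held 4 GC boxes, between 137 and 40 bases before the start, and 0 matches to the response element core. The Srxn1 window held 1 core, on the minus strand at bases 29 to 37 after the start, and 2 GC boxes. The 2 motifs did not overlap in either window. The core pattern requires C after TGA, and forms with another base there, such as tgagtcagc in the Srxn1 window, were not searched. The 0 matches in the Dsp window cover only the form searched. Of 32851 promoter windows of this length in the table, 12.4% held the core and 35.7% a GC box. With 1 window for each gene, whether these motifs bear on the values of Dsp or Srxn1 was not tested.

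Other desmosome genes were read from a separate list. Of its 9 genes, 8 were measured, with 1 called lower, 0 called higher and 7 not passing, at 1 probe set per gene, the one with the highest mean. Over all genes at such probe sets, 0.786% were called lower and 1.51% higher. The gene called was Pkp2, a plakophilin found widely outside the epidermis. Its probe set 1449799_s_at read 144, 141 and 140 in caNrf2 skin, against 203, 196 and 172 in control skin, and all caNrf2 arrays were below all controls. The log2 fold change was -0.42 ± 0.08 (SE; limma, adjusted p = 0.0241). A second Pkp2 probe set, 1429183_at, read 128, 122 and 116 in caNrf2 skin, against 167, 156 and 147 in control skin, at -0.35 ± 0.07 (adjusted p = 0.0493). The other 2 Pkp2 probe sets were dim, with group means of 9.72 to 29.4, within the 6.46 to 61.6 spanned by probe sets of Y-chromosome genes in these female mice, and did not pass. Both calls were lost with fewer arrays, at log2 fold changes of similar size. The first was lost when any array but control replicate 3 was left out, at adjusted p up to 0.111 and log2 fold changes from -0.49 to -0.38 over the 6 fits, and the second when any of the 6 was left out (adjusted p 0.067 to 0.186, log2 fold changes from -0.40 to -0.31).

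Dsg2, the desmoglein that pairs with Dsc2 in many epithelia, did not pass on any of its 6 probe sets in the fit used throughout, and all 6 estimates were negative. Probe set 1439476_at, the brightest, read 1436, 1357 and 1212 in caNrf2 skin, against 1631, 1532 and 1646 in control skin. Groups did not overlap on 5 of the 6 probe sets, with caNrf2 below control, which was so for 11.7% of all probe sets. The 6 probe sets read 1 gene in the same mice. The log2 fold changes lay between -0.42 and -0.21, with adjusted p from 0.103 to 0.361. With an intensity trend and robust variances, 1439476_at was called lower (-0.27; adjusted p = 0.0404), and it was not called in the other 7 alternatives on all arrays. Corneodesmosin (Cdsn), which is added to desmosomes as keratinocytes cornify, had the opposite sign. It read 4303, 4403 and 4540 in caNrf2 skin, against 3879, 3838 and 3913 in control skin, with separate groups and a log2 fold change of 0.19 ± 0.06 (SE; adjusted p = 0.173). Separate groups with caNrf2 above control were found for 11.4% of all probe sets. The armadillo protein Pkp4 had negative estimates on its 2 probe sets, which did not pass (adjusted p = 0.208 and 0.245). Plakoglobin (Jup), which binds the cadherin tails, gave 0.07 ± 0.06, and the membrane protein Perp gave -0.01 ± 0.06 (adjusted p = 0.625 and 0.948). These 3 genes were picked after their values were seen. The median of this list was -0.06, against -0.004 over all genes.

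**Figure D2:**
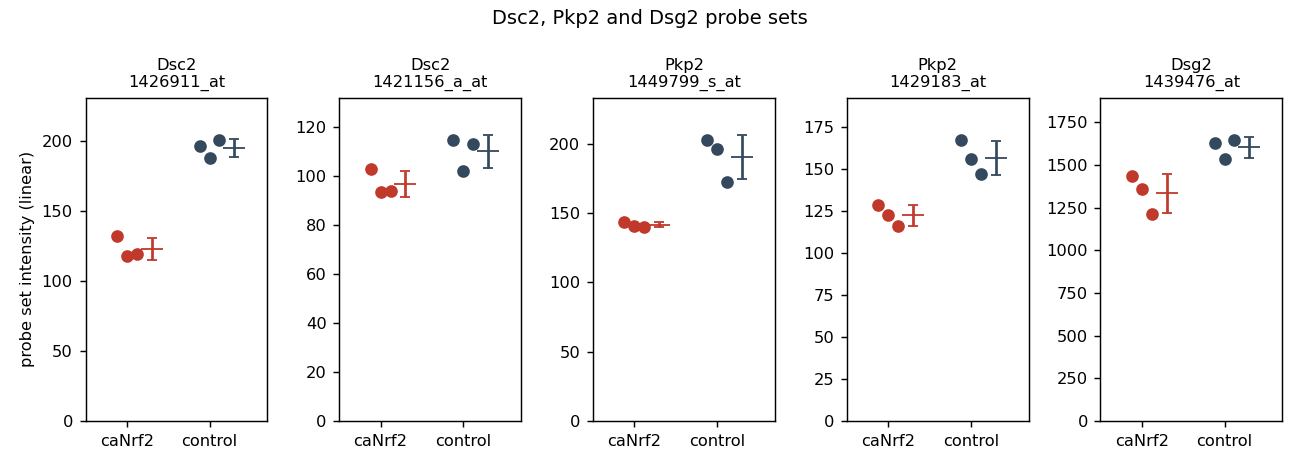
Linear intensity of 2 Dsc2, 2 Pkp2 and 1 Dsg2 probe sets in caNrf2 (left) and control (right) skin; points are mice, and bars give mean ± SD (n = 3 each). In every panel except Dsc2 1421156_a_at, all caNrf2 points lie below all control points, and the ratio of the means is furthest from 1 for Dsc2 1426911_at, at a fold of 0.63.

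The desmosomal cadherin genes lie side by side on chromosome 18, in the order Dsc3, Dsc2, Dsc1, Dsg1c, Dsg1a, Dsg1b, Dsg4, Dsg3 and Dsg2 in the RefSeq gene table. Read along this order at the brightest probe set of each gene, the estimates were negative for Dsc3 and Dsc2, positive for Dsc1, Dsg1a and Dsg1b, and negative again for Dsg2. Of these only Dsc2 passed. Its direct neighbours Dsc3 and Dsc1 had log2 fold changes of -0.18 and 0.10. Of the 8 listed genes flanking the cluster on both sides, Rnf125, which codes for a ubiquitin ligase and was singled out after its values were seen, was called higher at 0.42 ± 0.08 (SE; adjusted p = 0.0293) and the other 7 did not pass. A dimmer probe set of 1 of these, 1434449_at of the water channel Aqp4, was called lower at -0.52 ± 0.08 (adjusted p = 0.0075), with means of 21.9 in caNrf2 and 31.5 in control skin, a level also reached by Y-linked probe sets. The other 2 Aqp4 probe sets gave -0.08 and -0.02 and did not pass. The cadherin Cdh2, beside Dsc3, gave -0.05 (adjusted p = 0.763).

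The junctions and filaments around the desmosome were read the same way. Of 10 adherens junction genes 0 passed, and the smallest p belonged to the scaffold protein Afdn (-0.16 ± 0.08; adjusted p = 0.32) and p120 catenin Ctnnd1 (-0.12 ± 0.06; adjusted p = 0.372). E-cadherin (Cdh1), singled out after its values were seen, gave 0.00 ± 0.07. Of 9 measured hemidesmosome genes, which attach basal keratinocytes to the basement membrane, 0 passed. The tetraspanin Cd151 read 2601, 2791 and 2573 in caNrf2 skin, against 2131, 2250 and 1978 in control skin, with separate groups, at 0.33 ± 0.07 (adjusted p = 0.062). Of all probe sets, 11.4% had groups separate in this direction. Integrin Itgb4 gave 0.33 ± 0.09 (adjusted p = 0.104). The list medians were -0.01 for adherens junctions and 0.01 for hemidesmosomes.

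Of 6 keratins that desmosomes anchor, 1 was called lower, 0 higher and 5 did not pass (median 0.04). Krt15, a keratin of basal cells and the follicle, read 5420, 5702 and 5514 in caNrf2 skin, against 6865, 7064 and 6625 in control skin, at -0.30 ± 0.06 (SE; adjusted p = 0.0482). Leaving out any 1 of the 6 arrays ended that call (adjusted p 0.0823 to 0.165), while the log2 fold change stayed between -0.33 and -0.28. Krt14, the basal partner of Krt5, gave 0.10 ± 0.06 (adjusted p = 0.397), and Krt2 lay at the background, near 10. Of 9 measured genes of desmosome cleavage and its inhibition 0 passed (median -0.04). The kallikreins Klk8 and Klk6, serine proteases of the epidermis, had the smallest p, at 0.14 ± 0.07 and 0.11 ± 0.07 (adjusted p = 0.32 and 0.421). Of 11 measured regulators of desmosomes and differentiation 0 passed (median -0.05). The receptor Notch1 gave -0.17 ± 0.07 and the transcription factor Grhl3 0.14 ± 0.06 (adjusted p = 0.267 and 0.283).

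**Figure D3:**
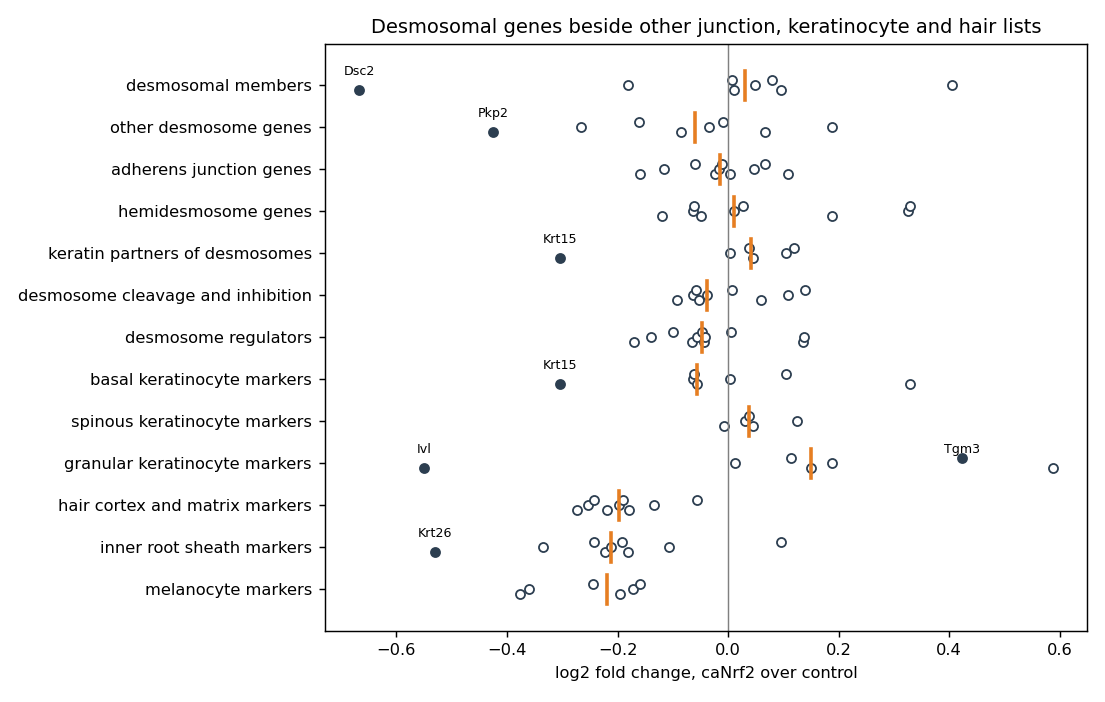
Log2 fold change of caNrf2 over control for the desmosomal genes and 12 other lists, with 1 point per gene at its brightest probe set, filled and named where it passed; the orange bar is the list median. The desmosomal median of 0.03 lies near 0, while the medians of the hair cortex, inner root sheath and melanocyte lists lie between -0.22 and -0.20. The granular keratinocyte median is 0.15.

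Markers of the cells that carry desmosomes, and of the other cells in skin, are given by counts and summed intensities, and their part in the Dsc2, Pkp2 and Dsg2 values was not tested. A sum mostly follows its brightest probe sets. Single marker genes are named after their values were seen, because they were called, except Krt5 and Col1a1, which were not called. Summed intensities of basal keratinocyte markers ran from 36410 to 36693 in caNrf2 skin and from 36559 to 37447 in control skin, with 1 of 7 called lower (Krt15). Those of spinous markers ran from 67193 to 69455 in caNrf2 and from 65969 to 67406 in control skin, with 0 of 5 called. Of 7 granular markers, the transglutaminase Tgm3 was called higher and the envelope precursor Ivl lower. Their sums were 42353 to 45422 in caNrf2 and 40981 to 42744 in control skin. Of the 7 granular estimates, 6 were positive. The list medians were -0.06 for basal, 0.04 for spinous and 0.15 for granular markers.

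Follicle and pigment markers had negative medians. Inner root sheath markers summed to 54489 to 57175 in caNrf2 and 62004 to 62722 in control skin, with 1 of 9 called lower (Krt26) and a median of -0.21. Hair cortex and matrix markers summed to 19239 to 20685 in caNrf2 and 20543 to 24372 in control skin, with 0 of 9 called and a median of -0.20. Melanocyte markers summed to 9765 to 10798 in caNrf2 and 11554 to 12216 in control skin, with 0 of 6 called and a median of -0.22. All 3 caNrf2 sums were below all 3 control sums for the inner root sheath and melanocyte lists.

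The other lists mark cells of the dermis and beneath it. Fibroblast markers summed to 68967 to 70495 in caNrf2 and 71072 to 73629 in control skin, with 0 of 6 called and a median of -0.05. Endothelial markers summed to 1284 to 1332 in caNrf2 and 1246 to 1307 in control skin, with 0 of 5 called and a median of 0.04. Immune cell markers summed to 2736 to 3091 in caNrf2 and 2886 to 3023 in control skin, with 0 of 6 called and a median of -0.01. The immune estimates were mixed, 3 negative and 3 positive, and lay between -0.24 and 0.36. Apart from the fibroblast list, whose sums did not overlap, the ranges of these sums overlapped. Skeletal muscle markers summed to 36560 to 37818 in caNrf2 and 36776 to 39563 in control skin, with 0 of 6 called and a median of -0.04. Adipocyte markers summed to 18644 to 19775 in caNrf2 and 18624 to 19838 in control skin, with 1 of 3 called lower, the hormone gene Lep, and a median of -0.04. Krt5 of the epidermis (11298 in caNrf2 and 11272 in control skin) and Col1a1 of the dermis (14263 in caNrf2 and 15024 in control skin) were both bright, as whole skin holds both layers. None of these lists had a defining marker at 0, since RMA gives every probe set a value.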

How the data were processed

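The authors deposited linear probe set intensities, for which the submitters' processing notes name RMA, from 6 Affymetrix arrays hybridised with cRNA from 2 ug of RNA per mouse, per the labels' protocols. RMA corrects background, quantile-normalizes and summarises, so a shift of most transcripts would not show. Its version is not given in the sources used here. Of 45101 probe sets, 64 controls were left out. Symbols came from the platform annotation and were updated by Entrez identifier through RefSeq (GRCm38.p6), which served otherwise only for gene order and promoters. Log2 intensities were fitted with limma 3.58.1 in R 4.3.3 (lmFit and eBayes, group as the only term, 4 residual and 5.72 prior degrees of freedom), with two-sided p-values adjusted by Benjamini-Hochberg over 45037 probe sets. The fit was also run on simulated data, whose recovery of changes as small as most seen here is not reported. Intervals are 95% intervals of the fit. No dim probe sets were removed. The arrays' number limits precision. Desmosomal genes and lists were chosen with earlier results of these data known. Named from the junction, keratin, cleavage and regulator lists were called genes and the 2 others with the smallest p. The Y-linked list gauged background (0 of 6 genes called). It was not even between the groups, with a median log2 fold change of 0.10 and 5 of 6 estimates positive. Its sums were 138 to 149 in caNrf2 and 124 to 135 in control skin.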

Additional observations from a re-analysis of the deposited data

How the results depend on the processing

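Dsc2 1426911_at stayed called in all 14 alternatives, with log2 fold changes from -0.72 to -0.60, so the desmosomal counts stayed at 1 lower and 0 higher. The other 13 desmosomal probe sets were called in none of theirs (lowest adjusted p 0.117). The sign changed in 7 cases, all close to 0. Dsp 1435494_s_at gave -0.0019 with array weights, -0.0069 with a further quantile normalization, and without 1 array ran from -0.030 (without caNrf2 replicate 2, and without control replicate 2) to 0.039. Pkp1 gave -0.013 with quantile normalization, and without 1 array Dsc1 1421460_at ran from -0.0011 (without caNrf2 replicate 1) to 0.13 and Dsp 1427610_at from -0.056 to 0.0099 (without control replicate 3). Over all probe sets, 470 were higher and 285 lower. The lower count was 428 with log2(value + 16), 610 with an intensity trend and robust variances, and 177 with the replicate block. Without 1 array the higher count ran from 280 to 354 and the lower from 79 to 270. More than 1.5 times below the full count were the higher counts without caNrf2 replicate 3 (280), control replicate 1 (296) and control replicate 3 (305), and the lower counts without caNrf2 replicates 1, 2 and 3 (132, 110 and 86) and control replicates 1 and 3 (79 and 147). Fewer samples enter these fits, and the cause of the other shifts was not tested. Same-numbered arrays correlated in their deviations from the group mean at 0.0413, 0.157 and 0.0826, and differently numbered arrays at -0.139 to 0.0695. These values do not settle whether the numbers pair mice. The main fit took no pairing, and the replicate block is given as an alternative. The block kept the calls of Dsc2 (adjusted p = 0.00661) and Pkp2 1449799_s_at (0.0467) but not of Pkp2 1429183_at (0.0534) or Krt15 (0.0802). Pkp2 1429183_at was also not called with median centring (0.0513) or a further quantile normalization (0.0683), nor was Krt15 with median centring (0.058). Testing 1 probe set per gene gave 412 higher and 253 lower. Median log2 fold changes of all probe sets by intensity ran from -0.053 to 0.046, and differences of that size in dim or bright genes cannot be told from this drift.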
